A study of Homo sapiens with 6 samples.

Results

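The genes described here are long noncoding RNAs that carry small RNAs inside them: the small nucleolar RNA host genes, whose symbols are SNHG followed by a number, and the microRNA host genes, whose symbols begin with MIR and end in HG. These symbols picked out 113 of the 60835 distinct gene symbols in the counted RNA-seq data, 28 with SNHG names and 85 with MIR...HG names. The rule used the symbols alone and no measured value, but it was set with earlier results of these data known. The cells were PANC-1, an established line of pancreatic epithelioid carcinoma. SMAD4, the shared partner of the receptor-regulated SMAD proteins in TGF-β and BMP signalling, had been knocked out in all of them. Each group had 3 libraries: one group of knockout cells was transfected with wild-type SMAD4 (WT) and the other with SMAD4 carrying the R272K change, in which lysine replaces arginine, and both were collected on day 3. Knockout cells without any SMAD4 were not analysed here, so every comparison is between these transfected groups and none is with cells lacking SMAD4. Whether replicates were separate cultures is not in the labels, so the p-values reflect the scatter of these libraries alone, and that scatter may be technical.

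In both kinds of host gene the host transcript is a carrier. Small nucleolar RNAs (snoRNAs) are cut out of its introns, bind a set of proteins and guide the chemical modification of ribosomal RNA: box C/D snoRNAs (SNORD) guide ribose methylation and box H/ACA snoRNAs (SNORA) guide pseudouridylation, while small Cajal body RNAs (SCARNA) act on the RNAs of the spliceosome. The spliced remainder of many snoRNA host genes is poorly translated and broken down by nonsense-mediated decay, and several of these genes begin, as ribosomal protein genes do, with a pyrimidine tract at the start site. MicroRNAs are cut from introns or exons of their hosts by DROSHA with DGCR8 and then by DICER1, and the seed, bases 2 to 8 of the mature strand, pairs with target mRNAs. The libraries held polyadenylated RNA, so the values below are those of the host transcripts. The small RNAs themselves were barely counted: 150 snoRNA genes inside the members held 626 counts over all 6 libraries and 123 of them were at 0, and 133 microRNA genes inside them held 249 counts and 109 were at 0. The hosts held 65377 counts (SNHG names) and 33758 counts (MIR...HG names).

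Mature microRNAs carried by the hosts that the results turn on are shown with the seed in capitals, from RefSeq (GRCh38.p14). MIR210HG, the one host gene that passed the test, carries miR-210, and the hosts of the other microRNAs listed were among the 10 tested microRNA hosts with the smallest p-values. MIR100HG carries miR-100, miR-125b-1 and let-7a-2, and MIR3142HG carries miR-146a.
hsa-miR-210-3p: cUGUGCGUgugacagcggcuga
hsa-miR-210-5p: aGCCCCUGcccaccgcacacug
hsa-miR-100-5p: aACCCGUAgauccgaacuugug
hsa-miR-125b-5p: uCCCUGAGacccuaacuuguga
hsa-miR-22-3p: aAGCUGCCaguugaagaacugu
hsa-miR-146a-5p: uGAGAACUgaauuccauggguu
hsa-miR-34a-5p: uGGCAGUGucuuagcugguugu
hsa-miR-3936: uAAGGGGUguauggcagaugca
hsa-miR-4453: gAGCUUGGucuguagcgguu
hsa-miR-31-5p: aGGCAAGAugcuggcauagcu
hsa-miR-17-5p: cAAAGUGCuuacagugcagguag
hsa-miR-20a-5p: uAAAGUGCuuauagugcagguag

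Of the 30 tested microRNA hosts 29 held a microRNA gene with a mature sequence in that table, 50 symbols in all, and MIR30DHG held none. The seed shared by the most hosts was that of let-7, which 7 mature names carried in 6 different tested hosts. They are shown because members of this seed family sit in hosts whose values went in different directions.
hsa-let-7a-5p: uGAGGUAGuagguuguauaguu
hsa-let-7b-5p: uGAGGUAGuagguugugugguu
hsa-let-7d-5p: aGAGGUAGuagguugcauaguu
hsa-let-7f-5p: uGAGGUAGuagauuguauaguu
hsa-let-7i-5p: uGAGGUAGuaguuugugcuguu
hsa-miR-4458: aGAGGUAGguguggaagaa
hsa-miR-4500: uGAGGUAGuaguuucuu

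SNHG1, the snoRNA host with the smallest p, carries 7 box C/D snoRNA genes in its introns. The 3 shown are those with a TGATGA box C in the first 20 bases and a CTGA box D in the last 20, both in capitals (DNA letters, GENCODE release 29, GRCh38, minus strand). SNORD25 lies at chr11:62855564-62855632, SNORD27 at chr11:62855012-62855083 and SNORD30 at chr11:62853663-62853732.
SNORD25: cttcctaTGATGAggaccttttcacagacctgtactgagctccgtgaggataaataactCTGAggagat
SNORD27: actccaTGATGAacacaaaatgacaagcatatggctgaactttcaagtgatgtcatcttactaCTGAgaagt
SNORD30: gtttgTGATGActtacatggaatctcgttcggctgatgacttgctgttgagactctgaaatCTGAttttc

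Total counts per library lay between 14776148 and 17706201. Levels are given as CPM, counts per library brought to the same total, and, where genes are compared with each other, as TPM, which the authors also divided by gene length. SMAD4, which was supplied by transfection, measured 83.4, 93.6 and 89.0 CPM in WT replicates 1 to 3 and 40.6, 45.6 and 43.6 CPM in R272K replicates 1 to 3, a log2 fold change of -1.03 (SE 0.075). The amount of SMAD4 mRNA and the amino acid change therefore cannot be told apart in any comparison below. WT replicate 1 stood apart from the others: on the first principal component, which held 32.2% of the variance, it lay at -31.3 and the other 5 libraries between -9.56 and 15.6. Class and list counts, and the values of several named genes that moved, are also given without it. Of 6 epithelial markers, all counted in every library, CDH1 rose (log2 fold change 1.33, adjusted p = 0.00174 by edgeR) and none of the others passed the test. Without WT replicate 1, 3 of the 6 were called higher, and with each library's trend with gene length removed 2 were. Over all genes, 109 of 15911 were called higher on all libraries. Without WT replicate 1 it was 480 of 16334, and with the length trend removed 319 of 15911. Markers of acinar, islet, immune, endothelial and fibroblast cells summed to between 1.49 and 2.49 CPM per library over 13 genes in WT and to between 1.90 and 2.00 CPM in R272K. None of the 13 reached the level needed for testing, and their part in any result below was not tested.

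Of the 28 SNHG genes, 23 passed the filter on low counts and were tested, as were 30 of the 85 MIR...HG genes. The 5 SNHG genes that were not tested held at most 5 counts in any library and 2 of them had none. Among the 55 untested microRNA hosts no library held more than 14 counts of any, and 23 were at 0 throughout. With 0 counts, a level of up to 0.169 to 0.203 CPM is allowed in a library (3 counts of its total, counting error only). Several of the hosts at 0, chosen after their values were seen, are known from other tissues: MIR122HG of liver, MIR124-1HG of neurons, MIR142HG and MIR223HG of blood cells, and MIR217HG of pancreatic acini. MIR200CHG, the host of an epithelial microRNA pair, held 1 count in all. At the edge of the filter, SNHG21 was inside with a mean of 0.875 CPM and SNHG22 outside with 0.164 CPM. MIR4713HG was inside with 0.551 CPM and MIR3681HG outside with 0.582 CPM, since the filter asks for enough counts in at least as many libraries as a group holds.

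Per unit length the snoRNA hosts were the more abundant class. The median of the mean TPM was 19.1 over the 23 tested SNHG genes and 4.09 over the 30 tested microRNA hosts. SNHG16 (host of SNORD1A, SNORD1B and SNORD1C) led with a mean of 101.7 TPM, followed by SNHG29 (SNORD49A, SNORD49B and SNORD65) at 95.3, SNHG1 at 82.97, SNHG17 (the SNORA71 group) at 66.9 and SNHG32 (SNORD48 and SNORD52) at 66.0. These 5 held 56.8% of the summed TPM of all SNHG genes, tested or not. Among microRNA hosts the order was MIR22HG with 47.8 TPM, MIR4435-2HG with 32.1, MIR3142HG with 28.8, MIR503HG with 26.3 and MIR100HG with 22.8, together 54.4% of their class. SNHG5 was the lowest tested snoRNA host, at 1.79 TPM, and MIR4500HG the lowest tested microRNA host, at 0.701.

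**Figure D1:**
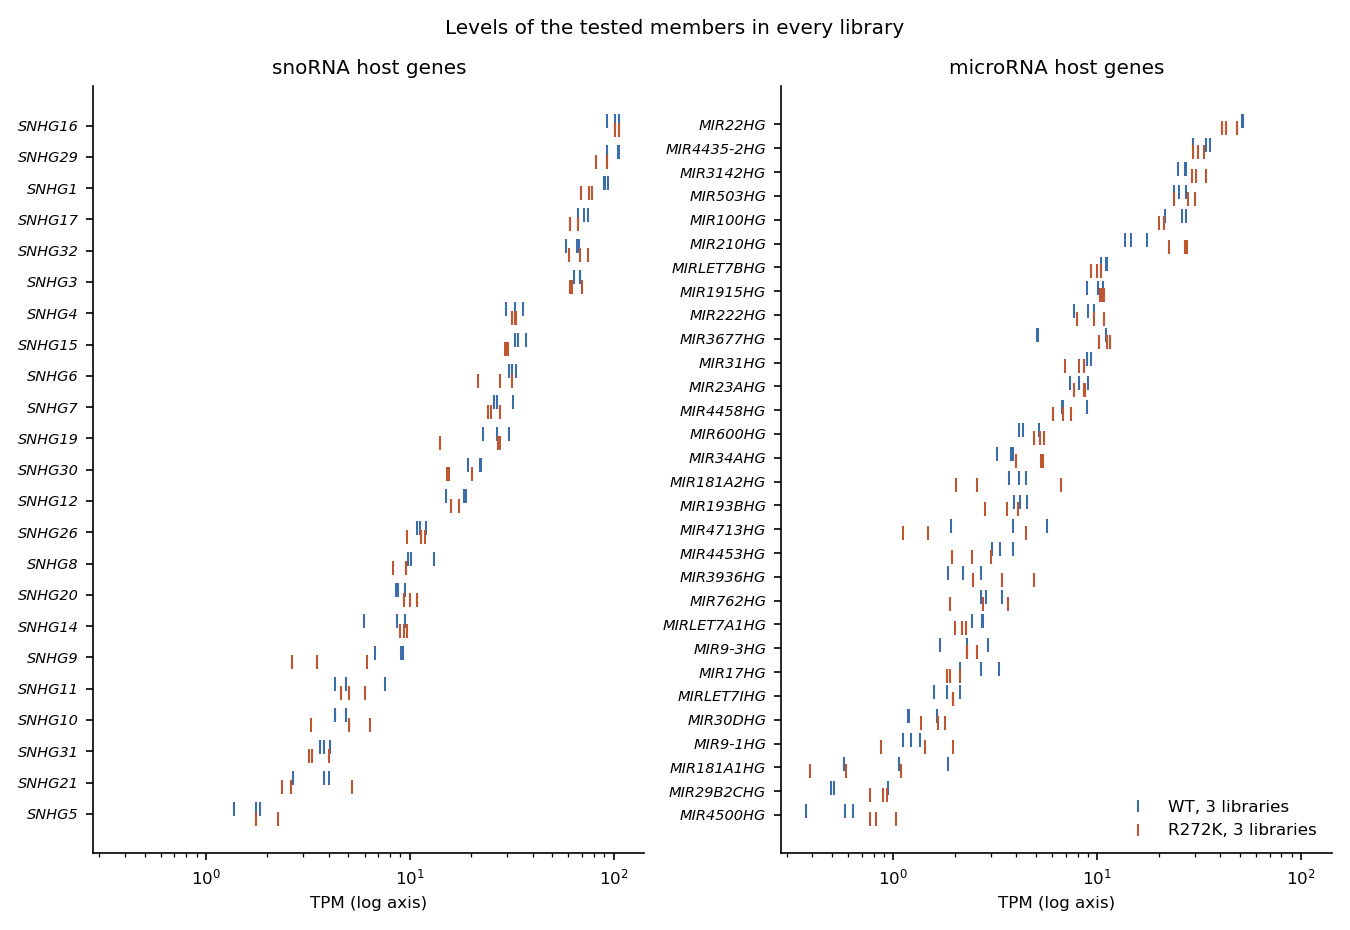
Each mark is the TPM of a gene in 1 library (log axis), WT above and R272K below the line of each gene, with genes ordered by their mean. SNHG16, SNHG29 and SNHG1 lie near 100 TPM, and most tested microRNA hosts lie between 1 and 10 TPM.

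Summed over all its members, tested or not, the snoRNA host class measured 768, 758 and 743 TPM in WT replicates 1 to 3 and 722, 725 and 645 TPM in R272K replicates 1 to 3. Every R272K library was below every WT library, and R272K replicate 3 was the lowest. In summed CPM the groups nearly met, with 699.5 in WT replicate 3 and 698.3 in R272K replicate 1. The microRNA host class measured 283, 285 and 296 TPM in WT and 289, 294 and 294 TPM in R272K, so its groups overlapped.

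MIR210HG rose in R272K cells and was the one member of either class that passed the test on all 6 libraries. It is the host of miR-210, a microRNA best known for its induction by hypoxia-inducible factors. MIR210HG (ENSG00000247095) lies on chromosome 11 at 565657 to 568457, minus strand, GRCh38, and miR-210 lies inside its transcript. Its level was 13.7, 9.94 and 10.4 CPM in WT replicates 1 to 3 and 16.5, 19.7 and 19.8 CPM in R272K replicates 1 to 3. All R272K libraries were above all WT libraries, with WT replicate 1 the highest of its group and R272K replicate 1 the lowest of its own. The mean went from 11.4 ± 2.07 to 18.7 ± 1.89 CPM (SD, 3 libraries each). On the log2 scale the difference was 0.71 (SE 0.132, adjusted p = 0.019 by edgeR's quasi-likelihood test with Benjamini-Hochberg adjustment). The call was lost without WT replicate 2 (adjusted p = 0.111), without R272K replicate 2 (0.140) and without R272K replicate 3 (0.162), while the log2 fold change stayed between 0.62 and 0.87 over the 6 fits that each left out 1 library.

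The promoter window of MIR210HG, 250 bases before to 50 bases after its RefSeq start, is printed because its transcript rose: chr11:568408-568707, minus strand, GRCh38.p14. Capitals mark the motifs found, which were searched on both strands of every RefSeq promoter window. They are ACGTG, a form of the core bound by hypoxia-inducible factors, and CAGAC and GGCGCC, short sequences bound by SMAD proteins. Other forms of the core, such as GCGTG, were not searched in this or any other window.
MIR210HG promoter: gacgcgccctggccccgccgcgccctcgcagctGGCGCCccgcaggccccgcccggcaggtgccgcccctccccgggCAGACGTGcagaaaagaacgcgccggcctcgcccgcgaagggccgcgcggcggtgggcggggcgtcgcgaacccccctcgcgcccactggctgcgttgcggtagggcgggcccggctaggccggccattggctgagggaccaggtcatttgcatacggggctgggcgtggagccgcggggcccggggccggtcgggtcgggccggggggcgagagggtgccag

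The ACGTG and CAGAC matches overlap. Such matches are common: of all promoter windows in the table, 21.4% held ACGTG, 45.3% CAGAC and 19.2% GGCGCC. Among the windows of tested microRNA hosts the shares were 28.6%, 48.6% and 34.3%, and among those of tested snoRNA hosts 20%, 55% and 20%. The palindrome GTCTAGAC, the longer SMAD-binding element, and TGATGNAA, the core of the element bound by ATF4, were in none of either class's windows, against 0.202% and 3.62% of all windows. A match is only a description of the letters.

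**Figure D2:**
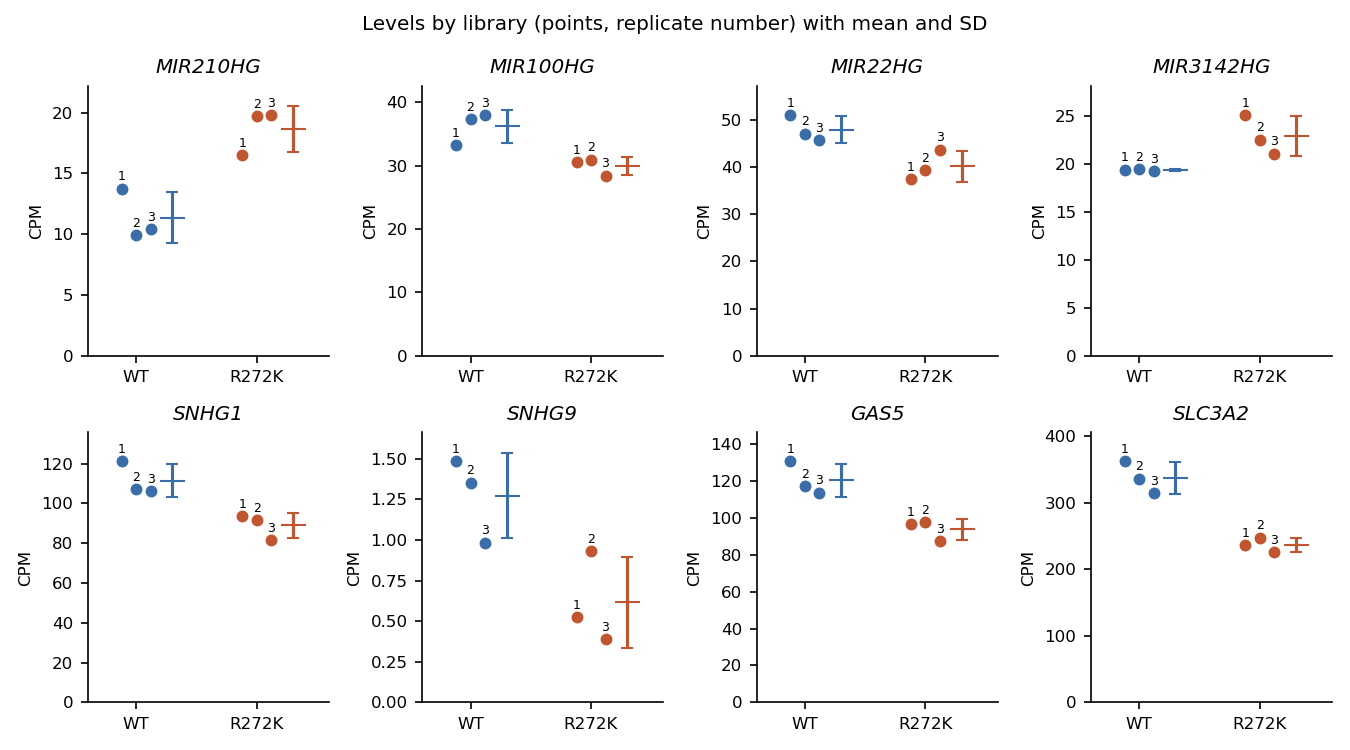
CPM in each library for 8 genes (points with replicate numbers, axes from 0), with the mean and SD of each group. MIR210HG and MIR3142HG lie higher in all R272K libraries, and the other 6 lie lower; of the 8, MIR210HG, GAS5 and SLC3A2 passed the test.

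No snoRNA host passed the adjusted threshold in the main edgeR fit, against 1.21% of the 15911 genes tested (0.685% higher and 0.528% lower). DESeq2 called 1, SNHG1, and limma-voom called 0. Some other edgeR settings on all libraries also called SNHG1, such as that with replicate number as an added term (adjusted p = 0.0295). At an unadjusted p below 0.05, 7 of the 23 (30.4%) were lower and 0 were higher, against 7.09% lower and 7.18% higher among all genes. These 7 were SNHG1, SNHG9, SNHG15, SNHG17, SNHG29, SNHG30 and SNHG8. Groups did not overlap, with R272K lower, for 5 of them (SNHG1, SNHG9, SNHG15, SNHG17 and SNHG8, 21.7% of the 23), where 10.4% of all genes had R272K lower without overlap and 10.9% had it higher. The direction over the class was down in 17 of 23 members, beside 50.3% of all genes tested. The median log2 fold change of the class was -0.14, against 0.00 over all genes tested. Without WT replicate 1 these counts shrank: 2 of 23 were lower at an unadjusted p below 0.05, beside 1395 of all 16334 genes. In that fit 15 of the 23 were below 0, beside 49.7% of all genes, and the class median was -0.04. Without R272K replicate 3 a single snoRNA host was lower at an unadjusted p below 0.05, beside 841 of all 16322 genes, and the class median was -0.07.

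SNHG1 had the smallest p of the class. It lies on chromosome 11 at 62851978 to 62855953, minus strand (ENSG00000255717). Its level was 121, 107 and 106 CPM in WT replicates 1 to 3 and 93.7, 91.5 and 81.7 CPM in R272K replicates 1 to 3. Every R272K library was lower than every WT library, and WT replicate 1 was the highest of all. The mean was 111 ± 8.37 CPM in WT and 89.0 ± 6.41 CPM in R272K (SD, 3 libraries each), and the log2 difference was -0.33 (SE 0.0768, adjusted p = 0.0611 by edgeR). It passed the threshold in DESeq2 (adjusted p = 0.018) and in the edgeR fit without WT replicate 1, in which its log2 fold change was -0.26 (adjusted p = 0.00268). In the fits that each left out another library the adjusted p lay between 0.0393 and 0.318.

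SNHG1 stands head to head with SLC3A2, which encodes the heavy chain of several amino acid transporters and was chosen after its values were seen. Their annotated starts are 51 bases apart on opposite strands, and the genes do not overlap. SLC3A2 measured 362, 336 and 314 CPM in WT replicates 1 to 3 and 237, 248 and 226 CPM in R272K replicates 1 to 3. All R272K libraries were below all WT libraries, and the gene fell by 0.51 on the log2 scale (SE 0.0684, adjusted p = 0.00174 by edgeR). The window around the RefSeq start of SNHG1, chr11:62855836-62856135, minus strand, GRCh38.p14, is printed because it spans both starts. Capitals mark the 50 bases between the annotated starts of the deposited data, and none of the 5 motifs searched is in the window.
SNHG1 promoter: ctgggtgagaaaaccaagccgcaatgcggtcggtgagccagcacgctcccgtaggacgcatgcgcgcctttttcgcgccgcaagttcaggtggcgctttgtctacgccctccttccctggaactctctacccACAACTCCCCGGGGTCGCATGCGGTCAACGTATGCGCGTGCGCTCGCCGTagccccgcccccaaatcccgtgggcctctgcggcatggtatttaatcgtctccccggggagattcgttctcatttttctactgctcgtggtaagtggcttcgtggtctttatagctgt

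Of the other tested members with a divergent neighbour whose start lay within 1000 bases, none had a neighbour that passed the test. SNHG9 starts 54 bases from RPS2, a ribosomal protein gene. SNHG9 measured 1.48, 1.35 and 0.983 CPM in WT replicates 1 to 3 and 0.525, 0.932 and 0.391 CPM in R272K replicates 1 to 3, which rests on 6 to 26 counts per library. Its groups did not overlap, and the lowest WT library and the highest R272K library were close. The log2 fold change of SNHG9 was -1.05 (SE 0.38, adjusted p = 0.226), and that of RPS2 was -0.09 (SE 0.0794, adjusted p = 0.668).

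The remaining snoRNA hosts at an unadjusted p below 0.05 moved by smaller amounts and were abundant enough for narrower errors. SNHG15, host of SNORA9, measured 40.9, 34.9 and 32.7 CPM in WT and 31.0, 30.5 and 30.7 CPM in R272K (log2 fold change -0.24, adjusted p = 0.248). SNHG17 measured 60.1, 59.5 and 60.9 CPM in WT and 56.5, 51.4 and 50.7 CPM in R272K (-0.19, adjusted p = 0.249). Neither pair of groups overlapped. SNHG17 did not have its highest level in WT replicate 1, and without that library its log2 fold change was -0.19 again, whereas that of SNHG15 went to -0.14. SNHG8, host of SNORA24, measured 27.7, 19.2 and 19.4 CPM in WT and 18.8, 18.8 and 16.0 CPM in R272K (-0.31, adjusted p = 0.325). WT replicate 1 was its highest library by a wide margin, and without it the log2 fold change was -0.11. SNHG29 (-0.21, adjusted p = 0.284) and SNHG30, host of SNORD7 (-0.34, adjusted p = 0.302), had overlapping groups.

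Among the other 16 tested snoRNA hosts, SNHG14 had the smallest p. This long transcript from the imprinted Prader-Willi region holds 84 snoRNA genes, mostly the SNORD115 and SNORD116 copies. It measured 49.3, 66.0 and 70.2 CPM in WT and 74.5, 72.2 and 67.6 CPM in R272K, with overlapping groups and a log2 fold change of 0.21 (adjusted p = 0.406). WT replicate 1 was its lowest library, and without it the log2 fold change was 0.07. SNHG6 (host of SNORD87) had a log2 fold change of -0.26 (adjusted p = 0.408) and SNHG7 (SNORA17 copies) one of -0.17 (adjusted p = 0.551), which was -0.02 without WT replicate 1. SNHG16, the most abundant snoRNA host, measured 114, 116 and 118 CPM in WT and 122, 117 and 115 CPM in R272K (log2 fold change 0.02, SE 0.061), and SNHG32 had a log2 fold change of 0.06 (SE 0.113). For these, R272K and WT libraries interleaved.

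Grouped by the kind of snoRNA inside, all 9 tested hosts of box H/ACA snoRNAs alone had a log2 fold change below 0, with a median of -0.17. Of 10 hosts of box C/D snoRNAs alone 6 were below 0 (median -0.14), and of 3 hosts of small Cajal body RNAs (SNHG10, SNHG20 and SNHG21) 1 was below 0 (median 0.11). SNHG12, which holds both kinds, was at -0.10. Without WT replicate 1 the medians were -0.11, -0.07 and 0.12, with 8 of 9, 6 of 10 and 0 of 3 below 0. Among all genes tested 50.3% were below 0, and 49.7% were without WT replicate 1. This grouping by kind of snoRNA was made after the values were seen and none of its groups was tested.

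**Figure D3:**
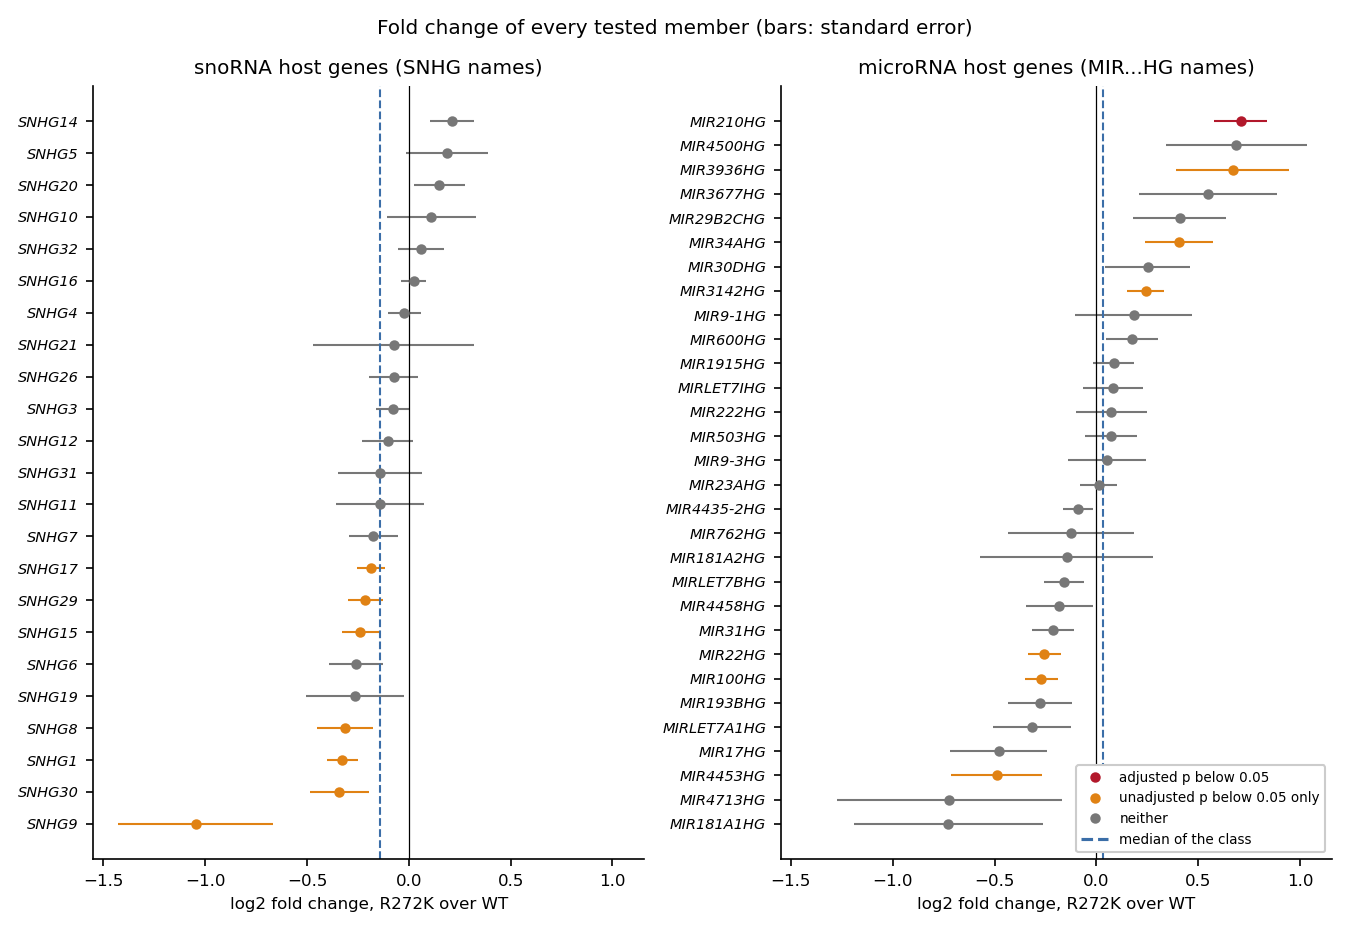
Log2 fold change of R272K over WT for every tested member with its standard error, coloured by whether the adjusted or only the unadjusted p was below 0.05, with a dashed line at the class median. Of the snoRNA hosts 17 of 23 lie left of 0 (median -0.14), and the microRNA hosts spread to both sides (median 0.03) with MIR210HG called.

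The snoRNA hosts leaned toward WT replicate 1 and away from R272K replicate 3. Of the 23, 13 (56.5%) had their highest level in WT replicate 1, where 28.0% of all tested genes did. Their lowest level was in R272K replicate 3 for 12 of the 23, a larger share than the 2654 of all 15911 tested genes. The median deviation of the class from each gene's own mean was 0.21 on the log2 scale in WT replicate 1 and -0.15 in R272K replicate 3, and between 0.00 and 0.04 in the other 4 libraries. Ribosomal protein genes, whose mRNAs share the pyrimidine start with several snoRNA hosts, were also high in WT replicate 1 and low in R272K replicate 3: 75 of 78 (96.2%) were highest in the former, and the median deviation in the latter was -0.15. Unlike the snoRNA hosts, with a median deviation of 0.00 there, they were also low in WT replicate 3 (-0.13). Their median log2 fold change was -0.12 with 73 of 78 below 0 on all libraries, and 0.00 with 37 of 78 below 0 without WT replicate 1. The microRNA hosts had 7 of 30 (23.3%) highest in that library, with a median deviation of 0.01. Gene length also ran with the deviations in WT replicate 1 (a Spearman's rho of -0.41 across genes, which are not independent replicates), and the median relative length was 1.33 for tested snoRNA hosts, 1.92 for tested microRNA hosts, 0.965 for ribosomal protein genes and 1.76 for all tested genes. With each library's trend with length removed, the median of the snoRNA hosts was -0.10 and that of the microRNA hosts -0.02. The part of this library's make-up in the class difference was not tested further.

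**Figure D4:**
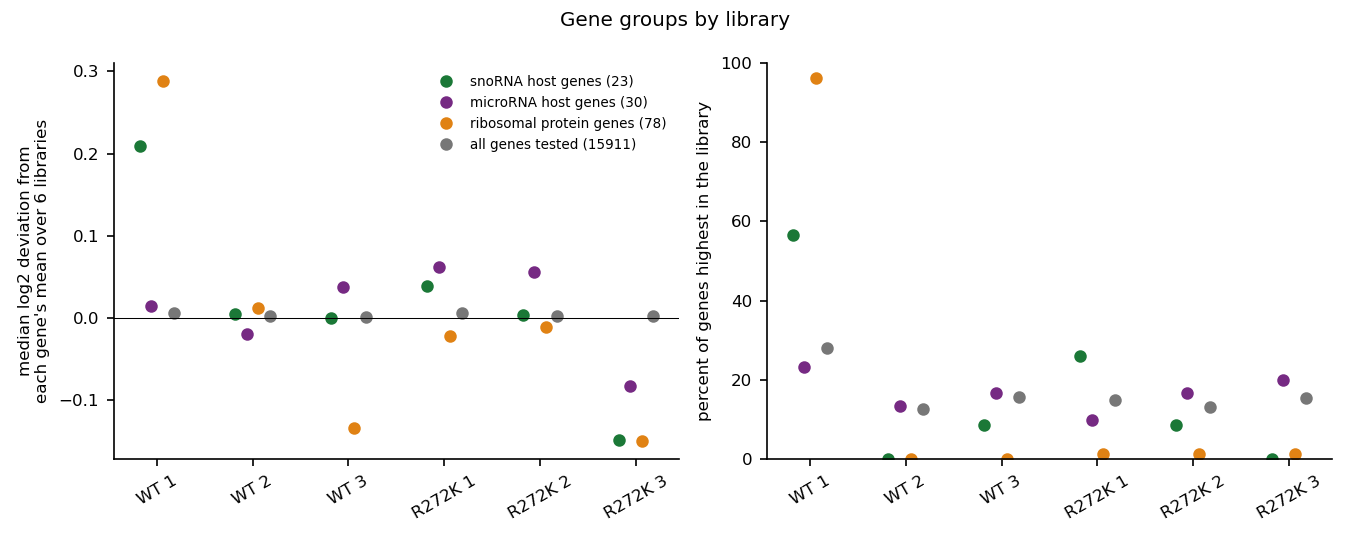
Left, the median deviation (log2) of each gene group in each library from each gene's mean over the 6 libraries; right, the percent of each group with its highest level in that library. Ribosomal protein genes (96.2%) and snoRNA hosts (56.5%) are the groups with the largest shares highest in WT replicate 1, beside 23.3% of microRNA hosts and 28.0% of all genes.

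A run of at least 8 pyrimidines near the start (from 5 bases before to 25 bases after it) was present in 5 of the 20 tested snoRNA hosts with a RefSeq promoter window (25%), in 71.8% of the windows of ribosomal protein genes, in 11.4% of those of tested microRNA hosts and in 11.2% of all windows. The stretches with the longest runs, from 15 bases before to 30 bases after the RefSeq start, are printed with the run in capitals, and SNHG1 is added as the lowest-p host with a run below that length. SNHG4 lies at chr5:139274086-139274130, SNHG12 at chr1:28581844-28581888, SNHG26 at chr7:22854225-22854269 and SNHG1 at chr11:62855856-62855900 (GRCh38.p14; SNHG4 and SNHG26 on the plus strand, the others on the minus strand).
SNHG4: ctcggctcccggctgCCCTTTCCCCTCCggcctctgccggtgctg
SNHG12: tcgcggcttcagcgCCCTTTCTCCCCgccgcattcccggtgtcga
SNHG26: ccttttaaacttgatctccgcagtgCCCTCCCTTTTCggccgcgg
SNHG1: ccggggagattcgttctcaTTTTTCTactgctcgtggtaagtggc

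The 5 hosts with such a run were SNHG4, SNHG12, SNHG16, SNHG26 and SNHG32, and their log2 fold changes were -0.02, -0.10, 0.02, -0.08 and 0.06 (-0.05, -0.01, 0.01, -0.04 and 0.15 without WT replicate 1). None of the 7 hosts lower at an unadjusted p below 0.05 was among them, but SNHG9 and SNHG15 could not be searched. The outcome also depends on the RefSeq start and on the cut of 8, since SNHG1 had a run of 7. Whether the lower hosts share a pyrimidine start was not tested. SNHG6, SNHG9 and SNHG15 had no window in the table.

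Among the microRNA hosts, MIR210HG was the 1 call of 30 (3.33%). At an unadjusted p below 0.05, 4 were higher (MIR210HG, MIR3142HG, MIR34AHG and MIR3936HG, 13.3%) and 3 lower (MIR100HG, MIR22HG and MIR4453HG, 10%), beside 7.18% and 7.09% of all genes. Groups did not overlap with R272K higher for 4 (MIR210HG, MIR3142HG, MIR1915HG and MIR4500HG, 13.3%) and with R272K lower for 6 (MIR100HG, MIR22HG, MIR17HG, MIR31HG, MIRLET7A1HG and MIRLET7BHG, 20%), beside 10.9% and 10.4% of all genes. Members went both ways, 16 above 0 and 14 below, with a median of 0.03. The standard error of a single gene had a median of 0.171 here and 0.124 in the snoRNA hosts, so smaller changes could be seen in the latter.

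MIR100HG carries the miR-100, let-7a-2 and miR-125b-1 cluster and is known as a TGF-β-responsive transcript in pancreatic cancer cells. It spans chromosome 11 from 122028325 to 122556721, minus strand. Its level was 33.2, 37.4 and 38.0 CPM in WT replicates 1 to 3 and 30.6, 30.9 and 28.4 CPM in R272K replicates 1 to 3, so every R272K library was lower. The log2 fold change was -0.27 (SE 0.0826, adjusted p = 0.151). WT replicate 1 was the lowest of the WT libraries here, and without it the log2 fold change was -0.33 and passed the test (adjusted p = 0.00566 by edgeR). It also passed with the length trend removed (adjusted p = 0.0377).

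MIR22HG, the most abundant tested microRNA host and the carrier of miR-22, measured 51.0, 47.0 and 45.7 CPM in WT replicates 1 to 3 and 37.4, 39.3 and 43.7 CPM in R272K replicates 1 to 3. The groups did not overlap, although R272K replicate 3 came close to WT replicate 3, and the log2 fold change was -0.26 (SE 0.0816, adjusted p = 0.167). MIR22HG overlaps WDR81 on the opposite strand, and the sources used here do not give the strand setting of the counting, so reads of such pairs cannot be told apart. MIR3142HG carries miR-146a, a microRNA known to dampen NF-κB signalling. It measured 19.4, 19.5 and 19.3 CPM in WT and 25.1, 22.6 and 21.1 CPM in R272K, with no overlap and a log2 difference of 0.24 (SE 0.0924, adjusted p = 0.251). The WT libraries of this gene were almost equal, and the R272K libraries spread more.

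MIR34AHG, host of the p53-induced miR-34a, measured 5.87, 5.34 and 4.46 CPM in WT and 7.55, 7.72 and 5.60 CPM in R272K (log2 fold change 0.41, SE 0.167, adjusted p = 0.284). R272K replicate 3 lay within the WT range. MIR3936HG measured 1.54, 1.69 and 2.03 CPM in WT and 3.81, 2.66 and 1.89 CPM in R272K (0.67, adjusted p = 0.288), and it overlaps SLC22A4 and SLC22A5 on the opposite strand. MIR4453HG had a log2 fold change of -0.49 (adjusted p = 0.343). MIR31HG, host of miR-31, measured 19.7, 18.3 and 18.8 CPM in WT and 14.5, 17.97 and 16.6 CPM in R272K (-0.21, adjusted p = 0.365), and MIR17HG, which carries the MYC-regulated miR-17-92 cluster, had a log2 fold change of -0.48 (adjusted p = 0.388). Among the abundant hosts MIR4435-2HG had a log2 fold change of -0.09 (SE 0.0743) and MIR503HG one of 0.07 (SE 0.126).

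The 6 hosts with a let-7 seed did not share a direction. MIRLET7A1HG (let-7a-1, let-7d and let-7f-1) had a log2 fold change of -0.32, MIR100HG one of -0.27, MIR4458HG one of -0.18 and MIRLET7BHG one of -0.16, whereas MIRLET7IHG was at 0.08 and MIR4500HG at 0.69. None of these passed the test on all libraries. MIR4458HG turned to 0.02 without WT replicate 1, and MIRLET7IHG was then also at 0.02. MIR4500HG rests on 7 to 20 counts per library, its level being 0.798, 0.473 and 0.786 CPM in WT and 0.985, 1.06 and 1.30 CPM in R272K (adjusted p = 0.395). MIRLET7BHG, the most abundant of the let-7 cluster hosts other than MIR100HG, measured 16.3, 16.0 and 15.7 CPM in WT and 14.4, 15.2 and 13.3 CPM in R272K, a small difference without overlap (adjusted p = 0.497). Hosts that share the miR-181 seed, MIR181A1HG and MIR181A2HG, had log2 fold changes of -0.73 (SE 0.465) and -0.15 (SE 0.425), and those of miR-9, MIR9-1HG and MIR9-3HG, 0.18 (SE 0.288) and 0.05 (SE 0.191). The errors of these 4 genes were wide, and MIR9-3HG turned to -0.10 without WT replicate 1.

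**Figure D5:**
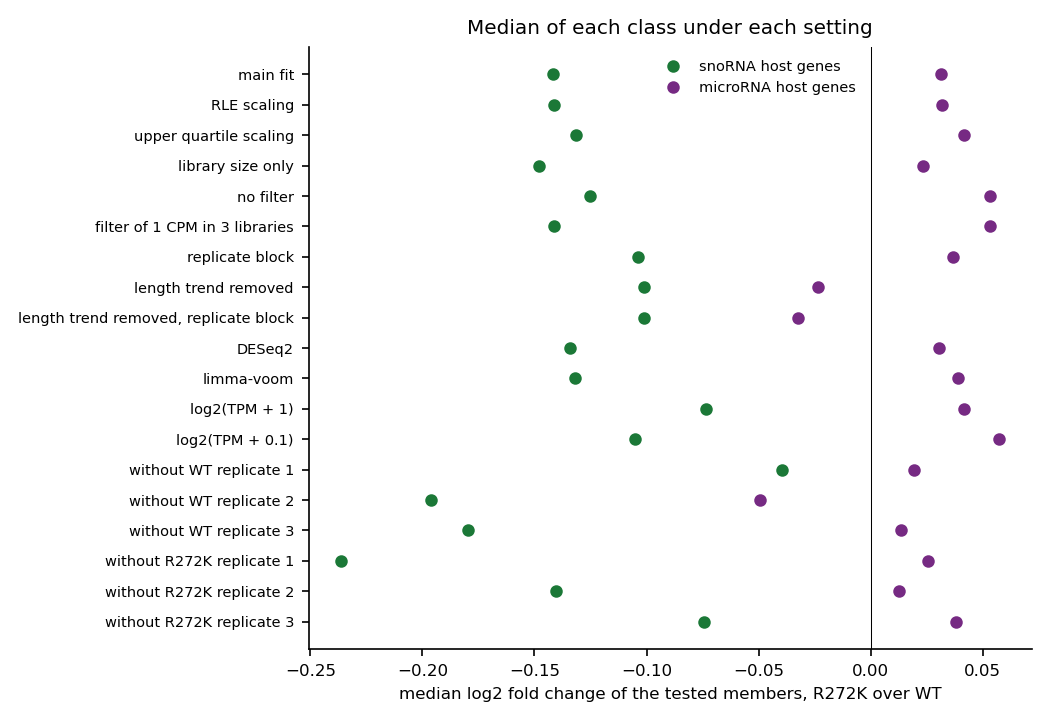
Median log2 fold change of the tested members of each class, R272K over WT, in the fit on all libraries and in each alternative. The snoRNA host median lies below 0 throughout (from -0.24 without R272K replicate 1 to -0.04 without WT replicate 1), and the microRNA host median lies within 0.06 of 0 on either side.

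Overlapping genes limit some of these values. Of the 23 tested snoRNA hosts 13 overlapped another tested gene, 10 of them on the opposite strand, and of the 30 tested microRNA hosts 11 did, 8 on the opposite strand. Neither SNHG1 nor MIR210HG nor MIR100HG was among them, while SNHG29 overlaps LRRC75A, SNHG8 overlaps PRSS12 and SNHG14 overlaps SNRPN and UBE3A.

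Other carriers of small RNAs were read from lists beside the 2 name classes. Of 9 further host lncRNAs, GAS5 fell and the other 8 did not pass the test. Among all genes tested 0.528% were called lower and 50.3% were below 0. Of these 9, 7 were below 0 on all libraries and 5 without WT replicate 1. GAS5, a growth-arrest transcript that carries box C/D snoRNAs, measured 130, 117 and 113 CPM in WT replicates 1 to 3 and 96.6, 97.6 and 87.2 CPM in R272K replicates 1 to 3. The R272K libraries were all lower (log2 fold change -0.36, SE 0.0742, adjusted p = 0.0339 by edgeR), the same direction as SNHG1. The call held without WT replicate 1 (log2 fold change -0.30, adjusted p = 0.000361) and was lost without WT replicate 2 (0.106) and without R272K replicate 1 (0.160), 2 (0.147) or 3 (0.236). FTX had a log2 fold change of 0.22 (adjusted p = 0.42), H19 one of -0.61 (adjusted p = 0.515) and EPB41L4A-AS1 one of -0.16 (adjusted p = 0.642).

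Protein-coding hosts gave 1 call, where 1.21% of all genes tested were called. Of 22 tested coding genes that carry microRNAs, SREBF1, the sterol regulatory factor gene that hosts miR-33b, rose from 66.4, 65.0 and 63.5 CPM in WT replicates 1 to 3 to 92.2, 96.6 and 106 CPM in R272K replicates 1 to 3 (log2 fold change 0.60, SE 0.0707, adjusted p = 0.000629). All R272K libraries were higher, and the call held without any 1 library. Its relative SREBF2, host of miR-33a, had a log2 fold change of 0.23 (adjusted p = 0.213), PANK3 one of 0.25 (adjusted p = 0.274) and CTDSP2 one of 0.12 (adjusted p = 0.392). Of the 22, 3 were higher at an unadjusted p below 0.05, beside 7.18% of all genes. Without WT replicate 1, 5 were, beside 1527 of all 16334 genes. Of 16 coding genes that carry snoRNAs none passed the test in edgeR, with a median of -0.04. At an unadjusted p below 0.05, 1 of the 16 was lower, beside 7.09% of all genes. Of these 16, 14 were below 0 on all libraries and 12 without WT replicate 1. EIF4A2 was at -0.13 (adjusted p = 0.337), EEF1B2 at -0.17 (adjusted p = 0.475), HSPA8 at -0.09 (adjusted p = 0.521) and WDR43 at -0.08 (adjusted p = 0.594).

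The proteins that process and use these RNAs did not pass the test on all libraries. Among all genes tested, 7.18% were higher and 7.09% lower at an unadjusted p below 0.05, and 50.3% were below 0. Of 18 snoRNP proteins, which bind snoRNAs, none was called (2 lower at an unadjusted p below 0.05, 15 of 18 below 0, median -0.06). Of these 18, 10 were below 0 without WT replicate 1 and the median was -0.03. Of 19 genes of microRNA processing none was called (1 higher at an unadjusted p below 0.05, median 0.06), with DGCR8 at 0.22 (adjusted p = 0.213), AGO1 at 0.17 (adjusted p = 0.36), DDX5 at 0.12 (adjusted p = 0.38) and DICER1 at 0.21 (adjusted p = 0.429). The median of these 19 turned to -0.01 without WT replicate 1, with 10 below 0 where 3 were on all libraries. Of 18 factors of nonsense-mediated decay, which degrades many spliced snoRNA host transcripts, none was called on all libraries. At an unadjusted p below 0.05, 6 of these 18 were lower, beside 7.09% of all genes. UPF2 was at -0.23 (adjusted p = 0.15), SMG5 at -0.17 (adjusted p = 0.193), CASC3 at -0.15 (adjusted p = 0.275) and SMG9 at -0.19 (adjusted p = 0.299). Without WT replicate 1, 2 of the 18 passed the test in edgeR, SMG5 (adjusted p = 0.0286) and CASC3 (adjusted p = 0.0257). Of all genes 875 of 16334 passed it there. Of 78 tested ribosomal protein genes none was called in edgeR. At an unadjusted p below 0.05, 6 of the 78 were lower, a share near the 7.09% of all genes. Among these 6 were RPL11 at -0.27 (adjusted p = 0.186), RPL23A at -0.30 (adjusted p = 0.206), RPS15A at -0.23 (adjusted p = 0.27) and RPS12 at -0.22 (adjusted p = 0.286).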

How the data were processed

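Per the submitters' processing notes, the reads went through HTSeq 0.10.0, HISAT2 2.1.0, fastp 0.23.0 and SAMtools with GRCh38; their settings, annotation and strand use were not given in the sources used here. Deposited by the authors were read counts per gene symbol and TPM values for 6 libraries. Repeated symbol lines (62710 lines, 60835 symbols) were used once. Relative gene length came from the ratio of count to TPM.

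Genes passing edgeR's expression filter (minimum count 10, minimum total 15; 15911 genes) were tested by the robust quasi-likelihood test of edgeR with TMM scaling, two-sided, group as the only term, Benjamini-Hochberg adjusted over all of them, called below 0.05. SE is the log2 fold change divided by the square root of F. The test was tested on simulated data. Replicates differed beyond sampling noise (lowest ratio of chi-square to its degrees of freedom 1.83).

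The members and lists were chosen with earlier results of these data known. Named members are those called, up to 10 per class by smallest p, 5 per class by highest TPM, those at the edge of the filter, and up to 4 of each list by smallest p; other names were chosen after their values were seen. Alternatives were other scalings and filters, a replicate block, removal of each library's trend with gene length (with and without that block), DESeq2, limma-voom, limma on log2(TPM + 1) or log2(TPM + 0.1), and each library left out. Sequences came from RefSeq (GRCh38.p14) and GENCODE release 29. Software was Python 3.11.15 (pandas 2.3.3, numpy 2.4.6, matplotlib 3.10.9) and R 4.3.3 (DESeq2 1.42.0, limma 3.58.1, edgeR 4.0.16).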

Additional observations from a re-analysis of the deposited data

How the results depend on the processing

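Over all genes, 193 were called; no filter gave 474, removal of the length trend 619 (652 with the replicate block), log2(TPM + 1) 100, log2(TPM + 0.1) 96, and leaving out 1 library 55 to 875. The count of snoRNA hosts called, 0, became 1 (SNHG1, lower) with library sizes alone, with no filter, with the replicate block, with the length trend removed (with or without the block) and in DESeq2, and was 0 to 1 with 1 library left out. The count of microRNA hosts called, 1, became 2 (MIR100HG added) with the length trend removed, with or without the block, and was 0 to 2 with 1 library left out. The median log2 fold change of the snoRNA hosts was -0.236 to -0.0396 and that of the microRNA hosts -0.0494 to 0.038 with 1 library left out, and the latter was -0.0324 with the length trend removed and the block. Among the 27 genes followed through the settings, those that changed sign when a library was left out were near 0. They were MIR503HG (-0.0055 without WT replicate 3, range to 0.174), SNHG16 (-0.000795 without R272K replicate 1, range to 0.0441) and SNHG32 (-0.031 without WT replicate 3, -0.0288 without R272K replicate 2, range to 0.145). Members outside these 27 also changed sign, some by more. SNHG11 went from -0.14 to 0.21 without WT replicate 1, and SNHG10 from 0.11 to -0.14 without R272K replicate 2. Of 484 values for the 27 genes followed under 18 settings, 462 kept direction and side of the threshold, 11 passed it newly, 7 lost it and 4 changed sign.

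Same-numbered libraries did not deviate together (correlations -0.065, -0.0072 and -0.012), and no library matched its own number best. With the replicate block 262 genes were called instead of 193, SNHG1 among them (adjusted p = 0.0295), and MIR210HG held (0.00381). The causes of these changes were not tested. Depth limits the low members: a single microRNA host had an approximate 95% interval of plus or minus 0.334 on the log2 scale at the median, and a snoRNA host 0.244. These intervals assume a normal distribution, so they are somewhat narrower than the quasi-likelihood test implies.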
